A study of Mus musculus with 2 samples.

Results

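In all, 10 genes of the type 2 axis were followed: Il4, Il5, Il13, Il33, Il1rl1, Ccl11, Ccl24, Ccr3, Il5ra and Siglecf. They were chosen by symbol, and all 10 members were found among the 31253 genes of the feature table. Single cells of mouse pancreas had been captured with the BD Rhapsody system, which tags each cell with a barcode and each captured transcript with a unique molecular identifier (UMI). There were 2 libraries, each 1 sample: CP, treated with the agent written as Cae, and CP+EVs, treated with Cae and EVs, which the series title gives as extracellular vesicles of physical exercise. Both are labelled as acute pancreatitis induced by Cae, whereas the series title speaks of chronic pancreatitis. The labels give no strain, age, dose, time or number of animals, and no untreated library was analysed here. With 1 library per treatment, every difference below is one between 2 libraries and not between treatments, and no test across animals was possible. Intervals are 95% intervals for counting error only.

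In type 2 immunity, injured stroma and epithelium release interleukin 33, encoded by Il33, which binds the receptor ST2, encoded by Il1rl1, on group 2 innate lymphoid cells (ILC2), regulatory T cells, mast cells and eosinophils. ILC2 answer with interleukin 5 and interleukin 13, encoded by Il5 and Il13, while interleukin 4, encoded by Il4, comes mainly from T cells, basophils and eosinophils. Interleukin 5 supports eosinophils through the receptor subunit Il5ra, and the eotaxins Ccl11 and Ccl24 attract them through Ccr3. Siglecf encodes a sialic acid-binding surface lectin that is used as an eosinophil marker.

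The sequences just upstream of Il5, Il13 and Il1rl1 are shown because these were the members with most UMIs per cell in ILC2-like cells, where the GATA factor Gata3 was also detected. They are RefSeq sequences of GRCm38.p6, 250 bases ending at the base before the annotated gene start, and 8 of the 10 members have an entry, of which Il1rl1, Il33 and Il4 have 2 starts each. Capitals mark GATA motifs, defined here as the letters GATA with A or T before them and A or G after them, on either strand. The windows lie at chr11:53720544-53720793 (plus strand) for Il5, chr11:53634703-53634952 (minus strand) for Il13, and chr1:40429320-40429569 and chr1:40439379-40439628 (both plus strand) for the first and second start of Il1rl1.
Il5: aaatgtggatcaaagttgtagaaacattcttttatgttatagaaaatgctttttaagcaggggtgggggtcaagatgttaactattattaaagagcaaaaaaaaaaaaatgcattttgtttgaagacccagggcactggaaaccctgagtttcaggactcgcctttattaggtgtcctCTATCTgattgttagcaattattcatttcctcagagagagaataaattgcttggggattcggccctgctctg
Il13: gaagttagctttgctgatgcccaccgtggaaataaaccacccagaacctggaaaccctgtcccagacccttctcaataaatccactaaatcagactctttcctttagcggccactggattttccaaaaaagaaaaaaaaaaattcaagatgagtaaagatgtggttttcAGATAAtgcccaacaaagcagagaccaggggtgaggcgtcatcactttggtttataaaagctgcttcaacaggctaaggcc
Il1rl1 first start: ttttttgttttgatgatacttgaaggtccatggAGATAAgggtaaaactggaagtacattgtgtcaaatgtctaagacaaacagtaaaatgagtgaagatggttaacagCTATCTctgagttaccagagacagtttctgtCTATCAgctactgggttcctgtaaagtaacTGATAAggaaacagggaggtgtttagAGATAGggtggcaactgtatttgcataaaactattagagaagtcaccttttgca
Il1rl1 second start: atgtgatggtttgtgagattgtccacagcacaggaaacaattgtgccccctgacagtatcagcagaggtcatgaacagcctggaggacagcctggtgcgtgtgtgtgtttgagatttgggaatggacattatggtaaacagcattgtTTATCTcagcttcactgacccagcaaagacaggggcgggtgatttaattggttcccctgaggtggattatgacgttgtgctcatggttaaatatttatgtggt
Il5 holds 1 such motif, 72 bases before the start, and Il13 holds 1, at 81 bases. The first start of Il1rl1 holds 5, at 217, 141, 110, 80 and 54 bases before the start, and the second holds 1, at 103 bases. Of 32851 mouse promoter windows, 26.5% hold at least 1 of these motifs, 6.40% at least 2 and 1.35% at least 3. Windows of Il5ra (1 motif, 74 bases before the start), Ccr3 (2 motifs, at 64 and 30 bases) and 1 start of Il4 (at 80 bases) also hold it, so 7 of 11 member windows do, while Siglecf, both Il33 windows and the other Il4 window do not. Another 3 motifs were searched on both strands: TTC and GAA with 4 bases between them were found for Il33 and Il4 (5.85% of all windows), the same with 3 bases between for no member (7.02%), and GGGA and CC with 4 bases between for Ccr3 (17.6%). A match describes the letters of the window and no binding was measured; the counts do not tell the 2 starts of Il1rl1 apart.

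The CP library held 13507 barcodes and 51652425 UMIs with a median of 1417 UMIs per barcode, and the CP+EVs library held 8845 barcodes and 38532775 UMIs with a median of 2884. After filtering, 13409 and 8799 barcodes remained, and 118 barcode sequences occurred in both libraries. Barcodes were put into classes by the UMIs of marker genes, none of them a member. No gate was passed by 18.4% of CP and 11.5% of CP+EVs barcodes. Another 5.76% and 7.58% passed gates of unrelated classes and were set apart. Some paired gates were resolved instead: mesothelial was preferred over fibroblast or ductal, eosinophil over neutrophil, plasma over B and ductal over acinar. Barcodes passing the dendritic and macrophage gates were called dendritic where summed C1q genes were under 1000 CPM, otherwise macrophage. Cell names below stand for these gates. Libraries differed in makeup: 2321 neutrophil-like cells came from CP against 22 from CP+EVs, whereas acinar-like cells numbered 6 and 3069. Acinar transcripts outside acinar cells differed likewise: 6 acinar enzyme genes summed to 19.7 to 450 CPM (counts per 1000000 UMIs of the class) in 11 classes of CP (natural killer, endothelial, ductal and acinar cells were not summed) and to 7989 to 18063 CPM in the same classes of CP+EVs.

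ILC2-like cells were scarce, with 21 in CP (0.157% of barcodes, interval 0.0970% to 0.239%) and 31 in CP+EVs (0.352%, 0.240% to 0.4997%). They were gated on 13 genes, so the levels of those genes describe the gate: Gata3 had a UMI in 20 of 21 and 28 of 31 cells, Il2ra in 21 and 26, and Areg in 19 and 27. Of the 11 eosinophil markers, 3 had a UMI in these cells in CP (29.6 CPM summed) and 0 in CP+EVs. T-like cells numbered 564 and 554, fibroblast-like cells 3272 and 1626, mesothelial-like cells 180 and 119, macrophage-like cells (macrophages or monocytes) 2809 and 309, and dendritic-like cells 158 and 72.

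The eosinophil gate held 309 cells in CP and 17 in CP+EVs, which are called Alox15+ granulocytes here because the data only partly bear out the eosinophil name. The gate asked for at least 1 of 10 markers, with at least 2 UMIs and 1000 CPM summed over them. Alox15 and the granule genes below were among these markers, so their shares describe the gate. Alox15, a lipoxygenase gene of eosinophils and some macrophages, had a UMI in 299 of 309 CP cells and in 17 of 17 CP+EVs cells. The granule genes were sparse: in CP, Epx was detected in 1 cell, Prg2 in 80, Ear6 in 18 and Ear1 in 6, with Ear10 at 0, and in CP+EVs Epx, Prg2, Ear1, Ear6 and Ear10 were all at 0. The 6 neutrophil genes summed to 14116 CPM in the CP cells of this gate, against 48229 CPM in CP neutrophil-like cells, and to 2505 CPM in the CP+EVs cells. Barcodes that also passed the neutrophil gate were kept in the eosinophil gate. The gate made up 2.30% of barcodes in CP (interval 2.06% to 2.57%) and 0.193% in CP+EVs (0.113% to 0.309%). Among barcodes with a Ptprc UMI or an immune gate, it made up 3.13% and 0.351%.

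The plot of levels by class shows the source and receiving cells of each member among classes of at least 10 cells. Il5 and Il1rl1 were highest in ILC2-like cells of both libraries, Ccl11 in fibroblast-like cells, and Ccr3 and Siglecf in Alox15+ granulocytes. Il4 and Il5ra were highest in Alox15+ granulocytes too, with only 1 UMI of each there in CP+EVs. Il33 was highest in fibroblast-like cells in CP and in mesothelial-like cells in CP+EVs. Ccl24 was highest in mesothelial-like cells in CP and in macrophage-like cells in CP+EVs, and Il13 in ILC2-like cells in CP+EVs, while in CP the intervals of ILC2-like and mast- or basophil-like cells overlapped.

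**Figure D1:**
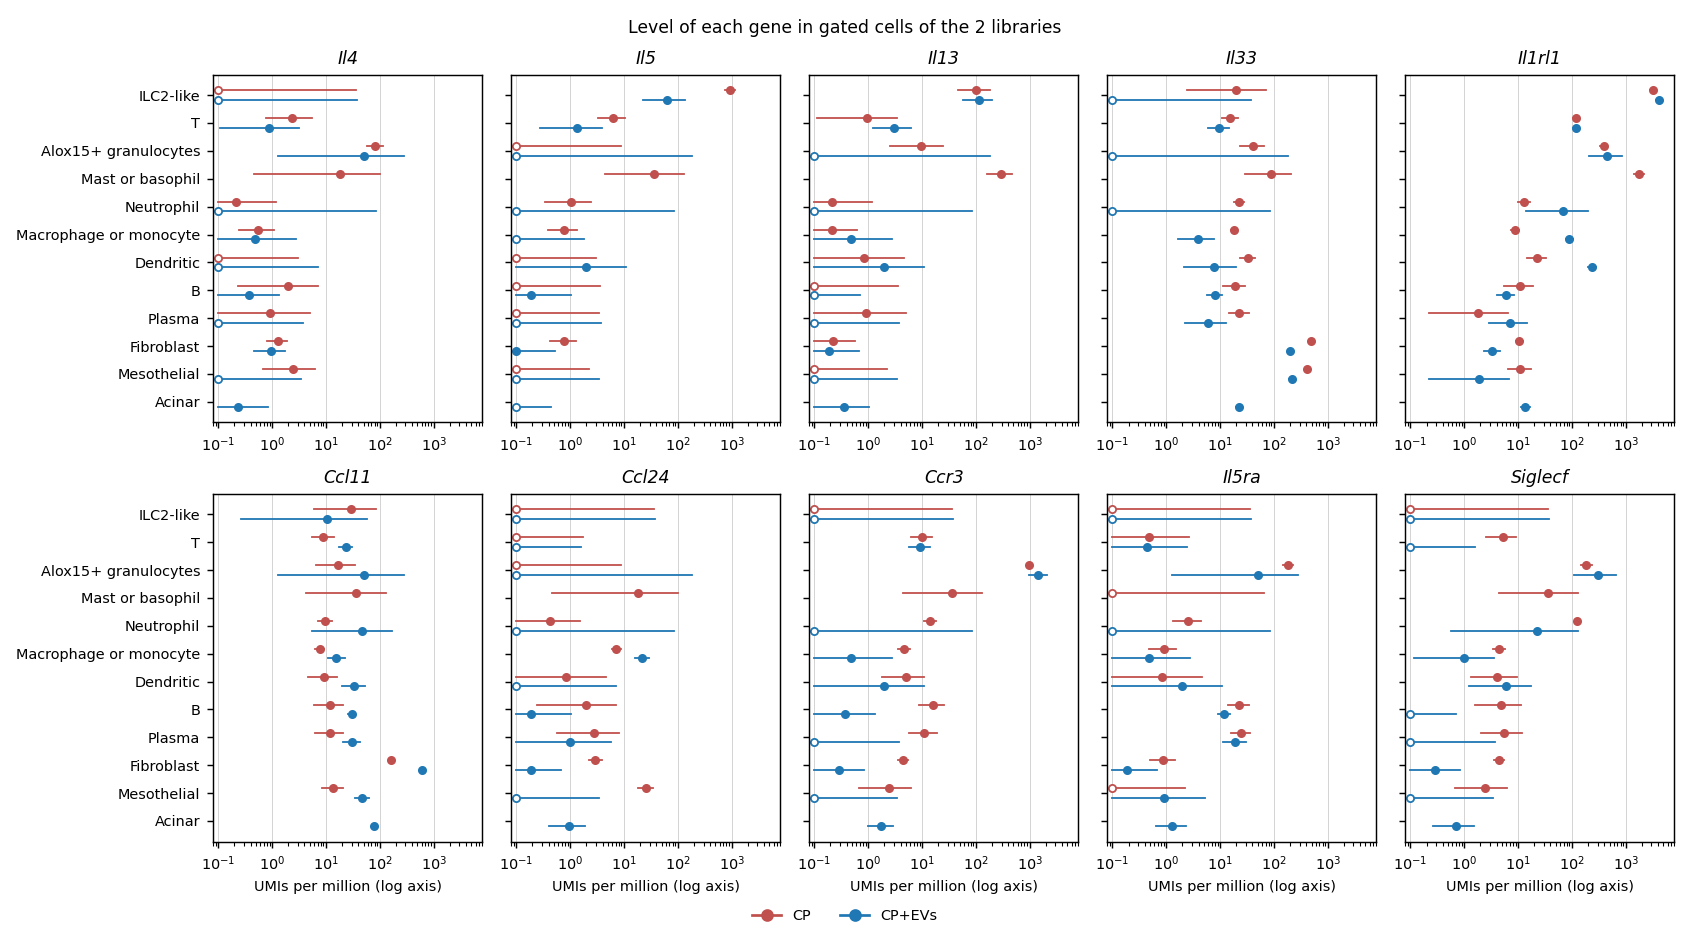
Level of each member (x axis, CPM, log axis) in each gated class with at least 10 cells (y axis), CP in red and CP+EVs in blue. Points are class sums with 95% Poisson intervals, open circles at the left edge are classes with 0 UMIs, and values under 0.1 are drawn at 0.1; Il5 lies at 937 in CP and 62.1 in CP+EVs in ILC2-like cells.

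Il5, the gene of the cytokine on which eosinophils depend (chromosome 11, 53720794 to 53725106, plus strand), was much lower in the ILC2-like cells of CP+EVs than in those of CP. In CP, 10 of 21 cells held 95 Il5 UMIs, with 47, 18, 8, 7, 7, 2, 2, 2, 1 and 1 UMIs per cell. In CP+EVs, 4 of 31 cells held 6 UMIs, with 3, 1, 1 and 1. The values of the positive cells overlapped at 1 to 3 UMIs, and only CP cells held more. The level was 937 CPM in CP (interval 758 to 1145) and 62.1 CPM in CP+EVs (22.8 to 135), which is 15.1-fold lower in CP+EVs (6.68 to 42.1).

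A single CP cell carried 47 of the 95 Il5 UMIs; without it the CP level was 493 CPM. The share of ILC2-like cells with an Il5 UMI was 47.6% in CP (25.7% to 70.2%) and 12.9% in CP+EVs (3.63% to 29.8%). Thinned to 1000 UMIs per cell, which all 21 and 31 cells reached, the expected shares were 28.5% and 4.51%. In fibroblast-like cells, which should lack Il5, 13 of 3272 CP cells and 1 of 1626 CP+EVs cells had a UMI. Among 2006 genes with at least 20 UMIs in ILC2-like cells, 8.67% were past 2-fold lower in CP+EVs and 7.13% past 2-fold higher; of the 3 members measured there, Il5 was lower and Il13 and Il1rl1 stayed within 2-fold.

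The Il5 result depended on how T cell receptor genes were treated. ILC2-like cells were allowed Trbc1 and Trbc2 UMIs, whose unrearranged transcripts ILC2 can carry, but no Cd3e, Cd3d, Cd3g or Trac UMI. With no Trbc1 or Trbc2 UMI allowed, 8 cells were left in each library, with 9 and 2 Il5 UMIs. With 1 receptor UMI allowed, 25 and 34 cells held 137 and 6 UMIs, 40 of them in 1 CP barcode of 22443 UMIs with 11 of the 13 ILC2 genes. Counting all barcodes with at least 8 of the 13 ILC2 genes, whether gated or not, 152 of 206 Il5 UMIs in CP (73.8%) and 12 of 16 in CP+EVs (75.0%) lay in such barcodes. Of these barcodes, 24 of 45 in CP and 20 of 41 in CP+EVs had a T cell receptor UMI. Those with a receptor UMI held 44 of the 152 and 3 of the 12 Il5 UMIs.

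**Figure D2:**
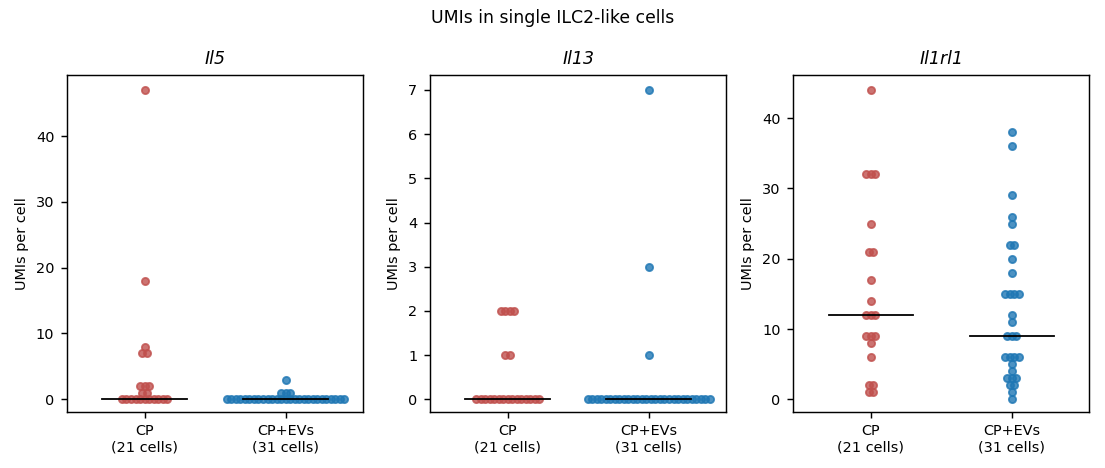
UMIs of Il5, Il13 and Il1rl1 in each ILC2-like cell (y axis) of CP (21 cells) and CP+EVs (31 cells), with a line at the median. The Il5 values reach 47 in CP and 3 in CP+EVs, while those of Il1rl1 have medians of 12 and 9.

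Il13, the gene of the cytokine that drives mucus production and alternative macrophage activation (chromosome 11, 53631324 to 53634702, minus strand), was at similar levels in ILC2-like cells of both libraries. In CP, 6 of 21 cells held 10 UMIs (2, 2, 2, 2, 1 and 1), and in CP+EVs 3 of 31 cells held 11 (7, 3 and 1). The levels of 98.6 CPM and 114 CPM gave a ratio of 1.15 (0.445 to 3.03), so no difference was detectable at this depth; without its top cell the CP+EVs level was 43.1 CPM. Il5 and Il13 were found in the same cell in 2 of 21 CP cells and in 0 of 31 CP+EVs cells. In CP, 2 of 34 mast- or basophil-like cells held 16 Il13 UMIs (9 and 7), a class level of 288 CPM (165 to 467) whose interval overlapped that of ILC2-like cells (47.3 to 181); without its top cell it was 151 CPM. CP+EVs had 1 cell of that class, so no ratio is given for it. T-like cells held 2 Il13 UMIs in CP and 7, in 6 cells, in CP+EVs.

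Il4 lies 12654 bases from Il13 on chromosome 11 (53602982 to 53618669, minus strand), and Il5 86091 bases beyond Il13, and Il4 was found mainly in other cells. It had 0 UMIs in the ILC2-like cells of both libraries, which, taking 3 cells as the limit that a count of 0 allows, leaves room for a share of up to 14.3% in CP and 9.68% in CP+EVs. In CP, 26 of 309 Alox15+ granulocytes held 35 Il4 UMIs, at most 3 per cell, a level of 83.1 CPM (57.9 to 116), and 24 of those 26 cells also had a Ccr3 UMI. In CP+EVs, 1 of 17 such cells held 1 Il4 UMI, a ratio of 0.603 (0.0149 to 3.59). T-like cells, a textbook source of interleukin 4, held 5 UMIs in CP and 2 in CP+EVs. Fibroblast-like cells, which should lack Il4, stood at 1.27 and 0.954 CPM, so the level in Alox15+ granulocytes of CP was above that background.

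Other type 2 lymphocyte genes in ILC2-like cells are given as a description, since 9 of the 20 listed, Gata3 and Areg among them, were gate markers. Of the 20, 14 were measured. Relative to CP, 0 were past 2-fold higher and 1 past 2-fold lower, beside 7.13% higher and 8.67% lower of all 2006 genes. That one was Gata3, the master transcription factor of type 2 lymphocytes, with 1834 CPM in CP and 869 CPM in CP+EVs, 2.11-fold lower (1.62 to 2.76). Areg, the gene of the repair factor amphiregulin, was at 1894 and 1905 CPM, a ratio of 1.01 (0.817 to 1.24). Calca, the gene of the neuropeptide CGRP that ILC2 make, was at 2653 and 1677 CPM, and Csf2, the gene of the growth factor GM-CSF, at 316 and 197 CPM. The list's median log2 ratio was -0.06, against a median of -0.0024 over all 2006 genes measured in the class.

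Il1rl1, the interleukin 33 receptor gene (chromosome 1, 40429570 to 40465415, plus strand), had a UMI in 21 of 21 ILC2-like cells in CP and in 30 of 31 in CP+EVs. Per cell there were 1 to 44 UMIs (median 12) in CP and 0 to 38 (median 9) in CP+EVs. The class levels were 3166 CPM (2829 to 3532) and 4068 CPM (3676 to 4491), a ratio of 1.28 (1.11 to 1.49), which was 1.07 with the first set of gates tried and 1.77 with no Trbc1 or Trbc2 UMI allowed. Mast- or basophil-like cells of CP came next with 1781 CPM (1447 to 2168), then Alox15+ granulocytes with 389 CPM in CP (332 to 454) and 451 CPM in CP+EVs (206 to 856), then T-like cells of CP with 118 CPM. These 4 CP levels did not overlap in their intervals.

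Within T-like cells the Il1rl1 level was high in cells with Foxp3, the transcription factor gene of regulatory T cells. Cells with a Foxp3 UMI, 22 in CP and 14 in CP+EVs, were at 606 CPM (488 to 744) and 1517 CPM (1212 to 1876), and 8 cells in each library had an Il1rl1 UMI. Cells with Gata3 and no Foxp3 were at 183 and 270 CPM (118 and 95 cells), and cells with Cd8a and neither Foxp3 nor Cd4 at 33.1 and 16.7 CPM (153 and 212 cells). T-like cells without Foxp3 that had at least 3 of the 6 ILC2 core genes, 14 and 18 in number and part of the other groups, were at 829 and 586 CPM. T-like cells with neither Gata3 nor Foxp3 were lower, at 36.9 and 33.9 CPM. Over all T-like cells the levels were 118 and 121 CPM, a ratio of 1.03 (0.861 to 1.22). Of 4 members measured in T-like cells, only Ccl11 was past 2-fold, higher in CP+EVs, beside 3.73% of 9991 genes higher and 3.54% lower.

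Among the ratios above 1, those of Il1rl1 in 2 myeloid classes were the largest. In macrophage-like cells 89 of 2809 CP cells held 127 UMIs and 83 of 309 CP+EVs cells held 181, at most 6 and 8 per cell. The levels were 8.84 CPM (7.37 to 10.5) and 88.7 CPM (76.3 to 103), which is 10.04-fold higher in CP+EVs (7.96 to 12.7). The share of cells with a UMI was 3.17% and 26.9%, and 0.854% and 7.14% at 1000 UMIs per cell; B-like cells, which should lack the gene, were at 0.755% and 0.435% at that depth. So the CP share in macrophage-like cells was near background, and the CP+EVs share was not. Cells with summed C1q genes of at least 1000 CPM were at 10.3 and 75.5 CPM, and those below at 7.01 and 119.9 CPM.

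Dendritic-like cells showed the same direction, but macrophage genes were also found in them. Those genes summed to 6840 CPM in CP and 6456 CPM in CP+EVs, against 28641 and 28890 CPM in macrophage-like cells. Barcodes that also passed the macrophage gate were kept as dendritic-like where summed C1q genes were under 1000 CPM. Of the dendritic markers, Flt3 had a UMI in 136 of 158 CP and 48 of 72 CP+EVs cells, and Zbtb46 in 62 and 14. In CP, 17 of 158 cells held 27 Il1rl1 UMIs (22.4 CPM, 14.8 to 32.6), and in CP+EVs 32 of 72 held 121 (238 CPM, 198 to 285), 10.6-fold higher in CP+EVs (6.96 to 16.8). Cells with Cd209a, a marker of type 2 conventional dendritic cells, were at 30.9 and 305 CPM, and cells with Xcr1 or Clec9a, markers of type 1 conventional dendritic cells, at 10.01 and 183 CPM. These groups overlap, and all 121 UMIs of CP+EVs lay in cells with Cd209a. Mature cells with both Ccr7 and Fscn1, 12 and 10 in number, had 0 UMIs. Of the 10 mast cell genes scored, 4 had a UMI in CP+EVs macrophage-like cells (2.45 CPM summed) and 2 in CP+EVs dendritic-like cells (53.1 CPM), with Cpa3, Ms4a2 and Fcer1a at 0 in both. Acinar genes summed to 88.3 and 12258 CPM in macrophage-like cells and to 48.1 and 10422 CPM in dendritic-like cells of CP and CP+EVs; Il1rl1 was at 13.7 CPM in the acinar-like cells of CP+EVs.

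**Figure D3:**
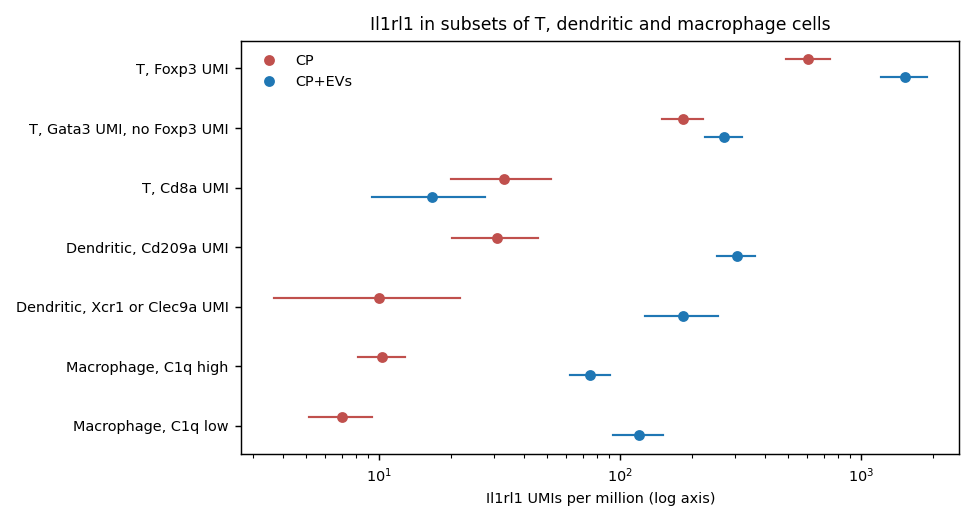
Il1rl1 level (x axis, CPM, log axis) in subsets of T-, dendritic- and macrophage-like cells (y axis), CP in red and CP+EVs in blue, with 95% Poisson intervals. T-like cells with Foxp3 lie highest of those drawn, at 606 and 1517, and the dendritic and macrophage subsets lie at 7.01 to 30.9 in CP and at 75.5 to 305 in CP+EVs.

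Beside this, 547 of the 1827 Il1rl1 UMIs of CP+EVs (29.9%) lay in barcodes that passed no gate. Of those barcodes, 110 held at least 2 Il1rl1 UMIs, with a median of 8866 UMIs in all; 81 had at least 3 macrophage genes, 93 had Retnla and 26 had Cd209a. The corresponding CP barcodes numbered 44, of which 12 had at least 3 macrophage genes and 7 had erythroid genes. Macrophage genes in these 110 barcodes had a median sum of 2875 CPM. Pooled over a class, such genes came to 4028 CPM in T-like and 782 CPM in B-like cells of CP+EVs. Macrophage-like cells there were at 28890 CPM. A median per barcode and a pooled sum are unlike measures, so these values do not name the cells. Neutrophil-like cells were at 13.1 CPM in CP and 68.7 CPM in CP+EVs, but 1 of 22 CP+EVs cells held all 3 UMIs. Stromal levels were lower in CP+EVs: fibroblast-like cells were at 10.5 and 3.34 CPM, 3.15-fold lower (2.19 to 4.65). Mesothelial-like cells were at 11.1 and 1.86 CPM, with 18 and 2 UMIs. B-like cells, which should lack the gene, were at 10.8 and 5.86 CPM, so both stromal levels of CP were near background.

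Il33, the alarmin gene (chromosome 19, 29925114 to 29960718, plus strand), was a stromal transcript in both libraries and lower in CP+EVs. Fibroblast-like cells held 8869 of the 10665 Il33 UMIs in CP (83.2%) and 2116 of the 2828 in CP+EVs (74.8%). Their level was 491 CPM in CP (480 to 501) and 202 CPM in CP+EVs (193 to 211), 2.43-fold lower in CP+EVs (2.32 to 2.55). The share of fibroblast-like cells with a UMI hardly differed, 43.0% and 41.3%, but median depth was 1156.5 and 5706 UMIs, and at 1000 UMIs per cell it was 30.6% and 14.3%. In B-like cells, which should lack Il33, it was 2.35% and 0.698% at that depth.

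Mesothelial-like cells, which line the organ surface, were next in CP with 406 CPM (375 to 438) and stood at 220.3 CPM in CP+EVs (193 to 250.2), a ratio of 0.543 (0.466 to 0.631). In CP their interval lay below that of fibroblast-like cells, and in CP+EVs the intervals overlapped. Fibroblast genes summed to 34602 and 15439 CPM in mesothelial-like cells, against 63394 and 40669 CPM in fibroblast-like cells. Barcodes passing both gates were kept as mesothelial-like, and the part of fibroblast RNA in these Il33 levels was not tested. The other CP classes of at least 40 cells were at 40.4 CPM or below, and 34 mast- or basophil-like cells held 5 UMIs (89.95 CPM, 29.2 to 210). In CP+EVs the other classes lay at 22.6 CPM (acinar-like cells) or below. The ratio in classes that should lack Il33 went the same way: it was 0.425 in B-like cells and 0.264 in plasma-like cells.

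Il33 was found in fibroblast-like cells with and without a UMI of adventitial markers. Among cells of at least 2000 UMIs, those with a UMI of Pi16 or Dpp4, markers of adventitial fibroblasts, were at 518 and 212 CPM (869 and 1048 cells). Those without were at 469 and 146 CPM (337 and 245 cells). Median depth was 13552 and 7619 UMIs in cells with a marker UMI, and 4745 and 4831 UMIs in those without. Cells without a marker UMI can thus include adventitial cells in which it was missed, which was not tested. Both subsets were lower in CP+EVs. The 10 fibroblast markers had to sum to at least 20000 CPM in a gated cell, so their levels partly describe the gate. They did not move one way. The collagen genes Col1a1 (14935 and 5326 CPM), Col1a2 (12718 and 6392 CPM) and Col3a1 (24244 and 8945 CPM) and Lum were lower in CP+EVs. Dcn, Dpt, Mfap5, Pdgfra, Pi16 and Dpp4 were higher, with Dcn at 6585 and 12452 CPM. Acinar genes summed to 90.1 and 9857 CPM in these cells. Leaving acinar, Reg, mitochondrial and haemoglobin genes out of the total gave a log2 ratio of -1.26 for Il33, against -1.28 with them.

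Ccl11, the gene of eotaxin-1 (chromosome 11, 82057823 to 82062955, plus strand), was also a fibroblast transcript and moved the other way. Fibroblast-like cells held 2947 of the 3396 Ccl11 UMIs in CP (86.8%) and 6375 of the 8039 in CP+EVs (79.3%). The level was 163 CPM in CP (157 to 169) and 608 CPM in CP+EVs (593 to 623), 3.73-fold higher in CP+EVs (3.57 to 3.90). The share of cells with a UMI was 27.7% and 77.4%, and 12.9% and 41.1% at 1000 UMIs per cell. Among cells of at least 2000 UMIs, those with Pi16 or Dpp4 were at 177 and 600.2 CPM and those without at 131 and 682 CPM. The order of the subsets thus differed between the libraries, while both were higher in CP+EVs. The limit of depth given for these subsets under Il33 holds here too.

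The same fibroblast-like cells often held Il33 and Ccl11: both were found in 704 of 3272 CP cells and in 596 of 1626 CP+EVs cells. In CP, 703 cells had Il33 alone and 202 Ccl11 alone; in CP+EVs, 75 had Il33 alone and 663 Ccl11 alone. Ccl11 was also at least 2-fold higher in CP+EVs in the 7 other classes where it was measured, T-, B-, plasma-, dendritic-, macrophage-, neutrophil- and mesothelial-like cells. Those levels were 7.73 to 13.5 CPM in CP and 15.7 to 47.4 CPM in CP+EVs, with acinar-like cells of CP+EVs at 79.1 CPM. In neutrophil-like cells the ratio rested on 2 UMIs of CP+EVs, and its interval included 1 (4.71, 0.553 to 18.0). The part of free fibroblast RNA in these values was not tested.

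In fibroblast-like cells 7 members were measured, with 1 past 2-fold higher in CP+EVs (Ccl11) and 5 past 2-fold lower (Il33, Il1rl1, Ccl24, Ccr3 and Siglecf). Of 13462 genes in that class, 6.76% passed 2-fold upward and 11.6% downward. Ccr3 was at 4.48 and 0.286 CPM and Siglecf at 4.43 and 0.286 CPM there, next to a neutrophil gene sum of 1003 and 19.7 CPM, so granulocyte genes moved with them; their part was not tested. In mesothelial-like cells 4 members were measured, 1 higher (Ccl11) and 2 lower (Il1rl1 and Ccl24), beside 6.84% higher and 9.08% lower of 9580 genes.

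Ccl24, the gene of eotaxin-2, which macrophages make (chromosome 5, 135569937 to 135573049, minus strand), was sparse, with 255 UMIs in all of CP and 94 in all of CP+EVs. Macrophage-like cells held 104 UMIs in 82 of 2809 CP cells (7.24 CPM, 5.91 to 8.77) and 45 UMIs in 24 of 309 CP+EVs cells (22.1 CPM, 16.1 to 29.5), 3.05-fold higher in CP+EVs (2.10 to 4.36). C1q-high cells were at 8.30 and 30.7 CPM and C1q-low cells at 5.92 and 1.64 CPM, the latter with 1 UMI. B-like cells, as background, were at 1.96 and 0.189 CPM. In CP+EVs, 44 of the 45 UMIs lay in C1q-high cells, whereas in CP 38 of the 104 lay in C1q-low cells.

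In mesothelial-like cells Ccl24 had 42 UMIs in 12 of 180 CP cells (25.8 CPM, 18.6 to 34.9) and 0 in 119 CP+EVs cells, which by the same limit of 3 cells allows a share of up to 2.52%. Against a floor of 3 UMIs over the class, the CP+EVs level was at least 9.26-fold lower. A single CP cell of 26708 UMIs held 15 of the 42, and without it the level was 16.9 CPM. The 12 positive cells were deep, with a median of 18320.5 UMIs against 1903 in the other 168, and mesothelial Upk3b was detected in 11 of them, at 1371 CPM against 1530 CPM in the others. C1qb, a macrophage gene, was at 64.9 CPM in the positive and 119 CPM in the other cells, and Csf1r at 142 and 105 CPM; their part in the Ccl24 count was not tested.

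In macrophage-like cells 6 members were measured, 3 at least 2-fold higher in CP+EVs (Il1rl1, Ccl11 and Ccl24) and 3 lower (Il33, Ccr3 and Siglecf), beside 7.64% higher and 10.3% lower of 11730 genes. In dendritic-like cells 2 of 3 were higher (Il1rl1 and Ccl11) and 1 lower (Il33), beside 4.69% and 10.6% of 7533 genes. In B-like cells 1 of 4 was higher (Ccl11) and 1 lower (Il33), beside 9.12% and 7.21% of 10396 genes. In plasma-like cells 1 of 3 was higher (Ccl11) and 1 lower (Il33), beside 3.95% and 9.62% of 6684 genes. Il33 and Ccl11 were at low levels in these classes, 33.5 CPM or below.

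Ccr3, the eotaxin receptor gene (chromosome 9, 124021972 to 124031689, plus strand), marked the Alox15+ granulocytes of both libraries. In CP, 201 of 309 cells held 416 UMIs, at most 9 per cell, and in CP+EVs 14 of 17 cells held 29, at most 3. The levels were 987 CPM (895 to 1087) and 1453 CPM (973 to 2087), a ratio of 1.47 (0.973 to 2.15) whose interval includes 1. The share with a UMI was 65.0% and 82.4%, and 57.4% of 220 cells and 82.1% of 11 cells at 1000 UMIs. The next highest gated class with at least 5 UMIs stood at 15.7 CPM in CP (B-like cells) and at 9.21 CPM in CP+EVs (T-like cells).

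Il5ra, the interleukin 5 receptor subunit (chromosome 6, 106710357 to 106749037, minus strand), was at 185 CPM in CP Alox15+ granulocytes (146 to 231; 78 UMIs in 56 cells). In CP+EVs 1 UMI was found in 17 cells, 50.1 CPM (1.27 to 279), a ratio of 0.271 (0.00677 to 1.553) whose interval includes 1. B-like cells had lower levels of 22.6 CPM in CP and 11.9 CPM in CP+EVs, and plasma-like cells 24.8 and 19.2 CPM. In both libraries these were above the 0.885 and 0.191 CPM of fibroblast-like cells. Csf2rb, the signalling subunit with which Il5ra pairs, was at 1002 and 1102 CPM in Alox15+ granulocytes.

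Siglecf (chromosome 7, 43351341 to 43359531, plus strand) was detected in 68 of 309 CP Alox15+ granulocytes, 185 CPM (146 to 231), and in 5 of 17 CP+EVs ones, 301 CPM (110.3 to 654), a ratio of 1.62 (0.578 to 3.70). Most of its UMIs lay elsewhere: CP neutrophil-like cells held 595 of 1037 (57.4%), in 430 of 2321 cells, at most 7 per cell. Their level was 126 CPM (116 to 136), below that of the Alox15+ granulocytes, and 12.2% of cells had a UMI at 1000 UMIs per cell, against 0.397% of B-like cells. CP neutrophil-like cells with the immature granule genes Ngp, Camp or Ltf were at 79.1 CPM (64.7 to 95.7) and those without at 144 CPM (132 to 157). In CP+EVs, 1 of 22 neutrophil-like cells held 1 UMI, 22.9 CPM (0.580 to 128).

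The 3 receptor genes overlapped only in part within the CP Alox15+ granulocytes. Ccr3 and Siglecf were found together in 42 cells, Ccr3 and Il5ra in 43, Siglecf and Il5ra in 17, and Ccr3 and Il1rl1 in 69 of the 309. Of 5 members measured in this class, 1 was past 2-fold, Il5ra, lower in CP+EVs on 1 UMI, beside 15.3% higher and 23.7% lower of 3845 genes. In neutrophil-like cells 2 of 5 were higher (Il1rl1 and Ccl11) and 1 lower (Siglecf), beside 23.6% and 14.3% of 8702 genes, with 22 cells in CP+EVs. The list of 18 eosinophil genes holds the 10 markers scored by the gate, Prg2 among them, so its values partly describe the gate. Of the 12 measured in Alox15+ granulocytes, 0 were at least 2-fold higher and 3 lower. Their median log2 ratio was 0.09 beside 0.08 over all 3845 genes. Prg2, a granule protein gene, was at 1270 CPM in CP and 0 in CP+EVs.

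Genes that interleukin 4 and 13 are known to induce did not move as one in macrophage-like cells. Of 14 listed, 11 were measured, 5 at least 2-fold higher in CP+EVs and 2 lower, beside 7.64% and 10.3% of all genes, with a median log2 ratio of 0.82 beside -0.17 over all genes. Retnla, a secreted resistin-like gene, stood at 350 and 13502 CPM, and Irf4, a transcription factor gene, stood at 15.9 and 57.4 CPM. Chil3, a chitinase-like gene, was at 1181 and 23.5 CPM, and Arg1, the arginase gene, at 256 and 0.490 CPM. Of the receptor and signalling list, 7 genes were measured, 0 higher and 2 lower, Il4ra (69.0 and 31.4 CPM) and Il13ra1 (99.2 and 34.8 CPM). That list's median log2 ratio was -0.05 beside -0.17 over all genes, of which 10.3% were lower.

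In dendritic-like cells 10 of the 14 listed target genes were measured, 3 at least 2-fold higher and 2 lower in CP+EVs, beside 4.69% and 10.6% of all genes, with a median log2 ratio of 0.48 beside -0.19. Ccl22, a chemokine gene for Ccr4-bearing T cells, was at 22.4 and 279 CPM, and Ccl17, its partner, had 0 UMIs in CP and 25 in CP+EVs. Other Ccr3 ligand genes differed by class: in fibroblast-like cells Ccl7 was at 216 and 108 CPM and Ccl8 at 5.86 and 2.48 CPM, whereas in macrophage-like cells Ccl8 was at 8.49 and 29.4 CPM. Among the alarmins beside Il33, Tslp in fibroblast-like cells was at 4.26 and 10.02 CPM, 2.35-fold higher in CP+EVs (1.74 to 3.20). Interleukin 33 signalling genes in fibroblast-like cells numbered 6 of 6 measured, 0 higher and 1 lower (Irak2, a kinase gene, 28.0 and 7.92 CPM). Of all 13462 genes there, 6.76% were higher and 11.6% lower.

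Over all classes, 44 ratios of members were measured, with at least 20 UMIs over both libraries. Of these, 12 passed 2-fold upward in CP+EVs and 16 downward. Over all genes, the shares by class were 3.73% to 23.6% upward and 3.54% to 23.7% downward. The 23.6% is that of neutrophil-like cells, where the prior can lift genes with 0 UMIs in CP+EVs. Among the 28 member ratios past 2-fold, 20 kept their side of 2-fold under each of 13 alternatives. The 8 that did not were Ccl11 in T-, macrophage- and mesothelial-like cells (mean per cell, log2 ratios of 0.59, 0.45 and 0.68), Ccl11 in plasma-like cells (0.89 with barcodes of 2 classes kept), Ccl24 in fibroblast-like cells (-0.83, mean per cell), and, under a stricter gate, Il33 in dendritic-like cells (-0.93), Il5ra in Alox15+ granulocytes and Il1rl1 in neutrophil-like cells. The median log2 ratio over all measured genes lay between -0.21 (plasma-like cells) and 0.25 (neutrophil-like cells). The part of a shift of the whole class in the member ratios was not tested. The plot of ratios shows that the points of Ccl11 lay above 1 and those of Il33 below 1 in every class where they have a ratio. Those of Il1rl1 lay on both sides. The intervals of Ccl11 in neutrophil-like cells and of Il33 in T-like cells included 1.

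**Figure D4:**
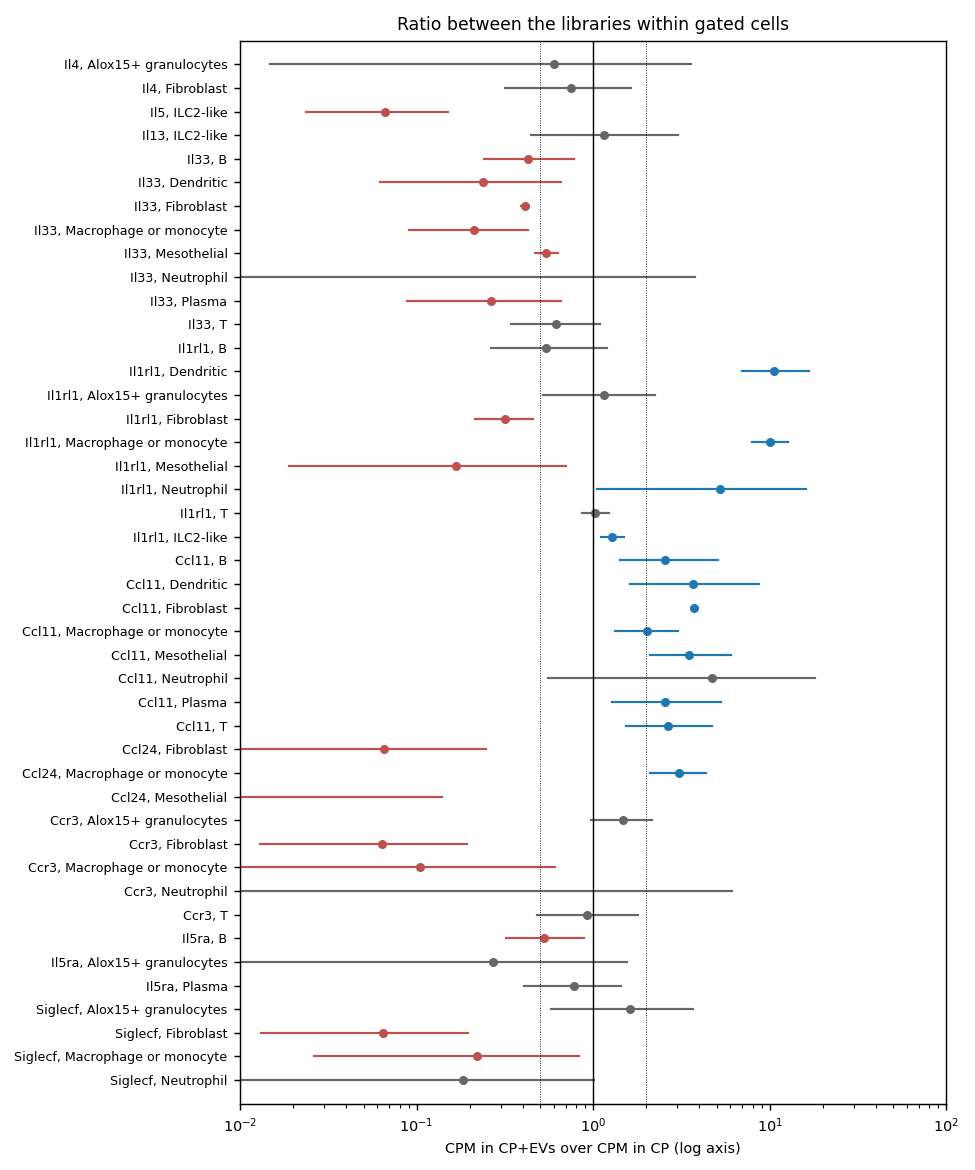
Ratio of CP+EVs over CP (x axis, log axis) for the 44 measured pairs of member and class (y axis), with exact 95% intervals for counting error. Blue intervals lie above 1, red ones below 1 and grey ones include 1; dotted lines mark 2-fold, bars are cut at 0.01, and pairs with 0 UMIs in a library have no point. Il1rl1 in macrophage- and dendritic-like cells lies farthest right, at 10.04 and 10.6.

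Genes with the pattern most like a member, by Pearson correlation of log2(CPM + 10) over 25 sums of a class in a library among 14251 genes, were as follows; the points share libraries and depth, and the values only describe. For Il5 they were Gm5127 (0.90), Csf2 (0.90) and Htr1b (0.89). For Il13 they were Ero1l (0.90), 2810455O05Rik (0.88) and Hes7 (0.86). Il33 was followed by Gabra3 (0.96), Pdzrn3 (0.96) and Bnc2 (0.96), and Ccl11 by Ecm2 (0.92), Pcolce2 (0.92) and Scara5 (0.92), the last a surface receptor gene of adventitial fibroblasts. Ccl24 was nearest to Ccl2, a monocyte attractant (0.77), Gm44386 (0.74) and Cbr2 (0.71). Siglecf was nearest to Gm28192 (0.98), Rab44 (0.91) and Slc7a11 (0.90).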

How the data were processed

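Values are UMI counts per gene and barcode as the authors deposited them, whole numbers and not normalized. Per the submitters' processing notes, CASAVA 1.8, UMI-tools and Seurat were used with mm10; the aligner, gene annotation and cell-calling settings were not given in the sources used here, and every barcode of both libraries holds at least 501 UMIs. Barcodes were used where they had 200 or more genes and no more than 25% mitochondrial UMIs. Each barcode was gated by the UMIs of marker genes (for ILC2-like cells at least 4 of 13 markers, of them at least 3 of 6 core genes, and no Cd3e, Cd3d, Cd3g or Trac UMI); no doublet caller was run, and barcodes passing gates of 2 unrelated classes were left out. Gates replace the authors' cell types, which were not used here.

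Members and gene lists were chosen with earlier results of these data known, and the gate thresholds, including the allowance for Trbc1 and Trbc2 UMIs in the ILC2 gate, which departs from the planned gate of no T cell receptor complex UMI, were set after member values had been seen; 3 sets were tried and the earlier 2 are among the alternatives. All 10 members were named, and for Il5, Il13, Il33, Ccl11, Ccl24 and Siglecf the 3 genes most like each, among genes with at least 50 UMIs over classes of at least 20 cells; genes of the pathway lists were picked for naming after their values were seen. UMIs were summed per class and library and divided by all UMIs of the class (CPM). Intervals are exact Poisson for levels, exact conditional for ratios and Clopper-Pearson for shares, all at 95%; since UMIs of 1 library are no replicates, they cover counting error only. Log2 ratios used a prior of 0.5 UMIs. A member or gene was measured with at least 20 UMIs over both libraries in a class and called at 2-fold or more; a floor of 3 UMIs stood for 0. Thinned shares are expected values at 1000 UMIs per cell, shallower cells left out. Alternatives were a stricter gate, barcodes of 2 classes kept, at least 500 genes, at most 10% mitochondrial UMIs, other totals, median-of-ratios scaling, means per cell, other denominators, and those chosen after seeing the data (earlier gates, T cell receptor rules, shared barcodes or top cells left out). Ratios and likeness were tested on simulated counts. Python 3.11.15, numpy 2.4.6, scipy 1.17.1, pandas 2.3.3 and matplotlib 3.10.9 were used.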

Additional observations from a re-analysis of the deposited data

Results flagged for a closer look

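For 2 members, ratios of CP+EVs over CP pointed in opposite directions in different classes, with intervals on either side of 1; with 1 library per treatment the difference between classes was not tested. The log2 ratio of Il1rl1 was 3.39 in dendritic-like cells, 3.33 in macrophage-like cells, 2.60 in neutrophil-like cells (1 of 22 cells in CP+EVs) and 0.36 in ILC2-like cells, but -1.64 in fibroblast-like and -2.29 in mesothelial-like cells. The log2 ratio of Ccl24 was 1.62 in macrophage-like cells, but -3.63 in fibroblast-like cells and -5.81 in mesothelial-like cells, the last with 0 UMIs in CP+EVs, so that its size depends on the prior count. In fibroblast-like cells Ccl24 was at 2.93 and 0.191 CPM, near the 1.96 and 0.189 CPM of B-like cells, taken as background. Il1rl1 in stromal cells of CP was likewise near its level in B-like cells, 10.8 CPM.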

How the results depend on the processing

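Of 572 ratio values under 13 alternatives, 555 stayed within the interval of the reported ratio or, for 15, moved outside it. The other 2 reversed, which was counted only for ratios past 2-fold. Smaller ratios could change sign within their interval. The log2 ratio of Il13 in ILC2-like cells was 0.20, but -0.88 with no Trbc1 or Trbc2 UMI allowed. Both reversals were Il1rl1 in neutrophil-like cells, with a log2 ratio of -0.13 under a stricter gate and -0.023 without the cell with most UMIs, which held all UMIs of CP+EVs. The log2 ratio of Il1rl1 in macrophage-like cells was 2.96 with barcodes of 2 classes kept and 2.52 as a mean per cell. As means per cell, Il33 in fibroblast-like cells was at -1.13 and Ccl11 at 2.16, and Ccl24 at -0.83, under 2-fold. Il5 in ILC2-like cells lay between -4.32 and -2.15; the latter came with no Trbc1 or Trbc2 UMI allowed, where the ILC2-like share of barcodes was 0.0597% in CP and 0.0909% in CP+EVs. Among barcodes with Ptprc or an immune gate, ILC2-like cells of CP+EVs made up 0.640% and Alox15+ granulocytes 3.13% in CP and 0.351% in CP+EVs. A stricter gate left Alox15+ granulocytes at 1.07% and 0.0682%, and a minimum of 500 genes put them at 2.74% in CP. Of 20 pairs of member and library, 16 kept their highest class under the stricter gate and 15 with no Trbc1 or Trbc2 UMI allowed, where Alox15+ granulocytes or ILC2-like cells fell under the 10 cells needed to be ranked, and 20 under each of the 4 other gate settings. Of 88 shares of cells with a UMI, 66 moved on thinning to 1000 UMIs. Apart from the cases named, the cause was not tested. No paired analysis was possible because each group had 1 library. The 17 Alox15+ granulocytes, 22 neutrophil-like cells and 31 ILC2-like cells of CP+EVs limit what could be detected there.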
